A study of Mus musculus with 35 samples.

Results

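The IGF axis with H19 was followed through RNA-Seq of adult mouse cardiac fibroblasts (CFs) and of whole mouse hearts. It was taken as 10 named genes, found by their symbol in each of the 4 deposited tables, and all 10 were among the 55487 genes listed there. They are the growth factors Igf1 and Igf2, the noncoding RNA H19, the receptor Igf1r and the binding protein genes Igfbp2, Igfbp3, Igfbp4, Igfbp5, Igfbp6 and Igfbp7.

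The study silenced IAMP, a micropeptide encoded by 4930523C07Rik, in primary CFs and deleted it in mice, to learn what loss of the peptide does to fibroblasts. The 27 CF libraries fall into 9 groups of 3. Each of 3 tables held a control siRNA (si-NC, called siNC here), si-IAMP-1 (siR1) and si-IAMP-2 (siR2), in cells left untreated, given IL-17 or given TGF-β. The labels give 24 h of siRNA and then 24 h of IL-17, and give no timing for the untreated or the TGF-β cells. The CFs were isolated by enzymatic digestion and adherence to plastic from adult mice, whose strain the fibroblast labels do not name. The 8 hearts came from C57BL/6 mice, 4 labelled KO and 4 labelled Het, with neither age nor sex in the labels. The study itself gives an age of 8 weeks for its heart RNA-Seq and for its isolation of CFs. The KO line was made by CRISPR-Cas9 with 1 guide RNA and carries a frameshift in the short reading frame, so the transcript itself remains. The Het mice carry 1 such allele, so the heart comparison has no wild-type group. Nothing in the labels says that the 3 libraries of a CF group came from separate mice or cultures, and the p-values then measure the spread between these libraries only.

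Insulin-like growth factors are secreted peptides that act through the tyrosine kinase IGF1R, which drives growth and survival through IRS proteins, PI3K and AKT. Secreted IGF binding proteins hold the ligands in the circulation and in the matrix, and either block or prolong their access to the receptor. Igf2 and H19 are neighbours on chromosome 7 and a textbook imprinted pair, with Igf2 expressed from the paternal and H19 from the maternal chromosome in fetal tissues. In the heart, fibroblasts and other stromal cells are known sources of IGF1.

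H19 is processed in part into miR-675, a microRNA known to act on the Igf1r transcript, and its mature forms are shown because the level of H19 is one of the results. The letters in capitals are the seed, bases 2 to 8, and the sequences are RefSeq's in the GRCm38.p6 build, on the minus strand at chr7:142577112-142577133 for miR-675-5p and chr7:142577078-142577099 for miR-675-3p.
miR-675-5p: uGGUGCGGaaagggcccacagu
miR-675-3p: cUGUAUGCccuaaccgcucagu
The separate Mir675 gene held at most 1 count in any of the 35 libraries, so the values of H19 below are those of the long transcript and not of the mature microRNA.

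The 10 genes lie on 6 chromosomes of GRCm38. Igfbp2 (ENSMUSG00000039323, chr1:72824503-72852474, plus strand) and Igfbp5 (ENSMUSG00000026185, chr1:72857932-72874884, minus strand) are neighbours, 5457 bases apart. Igf1 (ENSMUSG00000020053) is at chr10:87858265-87937042, Igf1r (ENSMUSG00000005533) at chr7:67952827-68233668, Igfbp4 (ENSMUSG00000017493) at chr11:99041244-99054392 and Igfbp6 (ENSMUSG00000023046) at chr15:102144362-102149511, all on the plus strand. Igfbp3 (ENSMUSG00000020427) is at chr11:7206086-7213923 and Igfbp7 (ENSMUSG00000036256) at chr5:77349240-77408041, both on the minus strand. Igfbp7 shares 85 of its 1209 exon bases with Polr2b on the other strand, and Igf2 shares 98 with Igf2os. Without a stated strand setting, reads from such stretches cannot be told apart.

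The start sites of 5 binding protein genes are shown because, among the binding proteins, these were called in at least 1 comparison of an siRNA with siNC in untreated cells or of TGF-β with untreated in siNC. Each window runs from 250 bases before to 50 after the start that RefSeq annotates in GRCm38.p6. RefSeq gave 13 windows for 9 of the 10 genes, and H19 had no entry. The window lies on the minus strand at chr11:7213874-7214173 for Igfbp3, chr1:72874816-72875115 for Igfbp5 and chr5:77407996-77408295 for Igfbp7, and on the plus strand at chr11:99040994-99041293 for Igfbp4 and chr15:102143936-102144235 for Igfbp6. Capitals mark any match, on either strand, to the hypoxia response core ACGTG, the SMAD box CAGAC, the TATA box TATAAA and the CCAAT box.
Igfbp3: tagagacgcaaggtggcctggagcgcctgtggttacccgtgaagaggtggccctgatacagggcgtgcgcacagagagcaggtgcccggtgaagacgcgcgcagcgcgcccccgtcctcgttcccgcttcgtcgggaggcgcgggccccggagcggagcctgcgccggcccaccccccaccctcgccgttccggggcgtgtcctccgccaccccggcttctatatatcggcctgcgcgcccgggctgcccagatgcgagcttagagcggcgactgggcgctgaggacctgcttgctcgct
Igfbp5: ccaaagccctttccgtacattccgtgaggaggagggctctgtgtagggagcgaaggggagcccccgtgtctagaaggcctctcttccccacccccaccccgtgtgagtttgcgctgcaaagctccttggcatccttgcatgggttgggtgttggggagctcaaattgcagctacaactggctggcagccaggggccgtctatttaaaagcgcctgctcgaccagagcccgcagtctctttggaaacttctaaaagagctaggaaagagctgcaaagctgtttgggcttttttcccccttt
Igfbp6: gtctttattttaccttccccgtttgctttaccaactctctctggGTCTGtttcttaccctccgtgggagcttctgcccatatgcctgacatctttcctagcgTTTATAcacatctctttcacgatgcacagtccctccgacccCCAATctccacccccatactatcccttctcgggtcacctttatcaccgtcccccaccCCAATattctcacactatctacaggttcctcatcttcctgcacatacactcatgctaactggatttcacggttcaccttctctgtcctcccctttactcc
Igfbp4: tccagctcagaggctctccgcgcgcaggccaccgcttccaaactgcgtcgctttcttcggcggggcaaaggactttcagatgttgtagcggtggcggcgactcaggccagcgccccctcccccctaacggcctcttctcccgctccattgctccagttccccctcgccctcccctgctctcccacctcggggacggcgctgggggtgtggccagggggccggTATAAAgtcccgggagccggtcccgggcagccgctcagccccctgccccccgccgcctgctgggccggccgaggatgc
Igfbp7: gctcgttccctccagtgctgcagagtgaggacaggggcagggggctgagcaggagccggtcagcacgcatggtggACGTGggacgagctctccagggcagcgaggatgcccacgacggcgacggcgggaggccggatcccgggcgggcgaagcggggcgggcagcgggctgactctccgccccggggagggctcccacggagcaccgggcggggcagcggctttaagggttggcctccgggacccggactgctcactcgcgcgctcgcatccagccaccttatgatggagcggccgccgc
The windows of Igfbp3 and Igfbp5 held none of the 4 motifs. Igfbp6 had a TATAAA match on the minus strand at -148, CCAAT at -107 and -50 and a CAGAC match on the minus strand at -206. Positions are counted from the start that RefSeq annotates. For Igfbp6 the whole window lies before the start of the gene model given above, 102144362, so they are not distances from that start. Igfbp4 had TATAAA at -28 on its own strand, and Igfbp7 had ACGTG at -175. Of all 32851 promoter windows, 19.62% held ACGTG, 49.59% CAGAC, 13.62% TATAAA and 37.41% CCAAT. These matches describe letters in the windows, and whether they bear on the values that follow was not tested.

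A CF library held 104139670 to 119232309 estimated counts and a heart library 23497027 to 23857313 counts. One read pair is worth about 6 estimated counts in the CF tables, so 3 read pairs, the floor used here, are 18 estimated counts. Levels are in CPM, counts scaled to a common library size with TMM factors, and in CPM per kilobase of exon (CPM/kb) where genes are compared with each other. All 12 fibroblast markers, such as Col1a1, Pdgfra and Dcn, were detected in every CF group, with a summed level of 16935 to 24265 CPM against 843 to 1233 CPM in hearts. The cardiomyocyte markers summed to 45808 to 49487 CPM in hearts and to at most 98.9 CPM in any CF library. The targeted gene fell with both siRNAs in all 3 tables. Its siNC libraries were at 22.2, 22.7 and 25.9 CPM untreated, 18.8, 20.9 and 16.9 CPM with IL-17 and 19.2, 19.8 and 22.9 CPM with TGF-β, and no knockdown library exceeded 4.59 CPM. Its fold change was 0.128 and 0.0775 untreated, 0.138 and 0.0924 with IL-17, and 0.213 and 0.160 with TGF-β, for siR1 and siR2, so less of it was lost with TGF-β. In the hearts its level was 15.9, 16.5, 18.8 and 16.9 CPM in Het and 15.4, 17.2, 15.2 and 16.3 CPM in KO, which does not check the genotype of a frameshift allele.

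Other cell types in bulk cultures matter to a secreted growth factor. In 5 of the 27 CF libraries, Alb, an albumin transcript of hepatocytes, reached 1796 to 7739 estimated counts, and the other 22 held at most 134. These were replicate 3 of untreated siNC, replicates 1 and 3 of IL-17 siNC, replicate 2 of TGF-β siR1 and replicate 3 of TGF-β siR2. Liver is the main source of circulating IGF1. The libraries with liver transcripts held Igf1 at 74.5 CPM in untreated siNC (77.2 and 82 in the others of the group), 51.8 and 51.4 in IL-17 siNC (51.5 in the other), 40.4 in TGF-β siR1 (35.5 and 40.7) and 35 in TGF-β siR2 (31.8 and 34.4). Fitted without the 5 libraries, a choice made after seeing the data, none of the 19 CF comparisons changed its count of called IGF genes beyond 1.5 times. Of 145 single values, 131 kept their sign and side of the threshold, 8 no longer passed and 6 that had not passed changed sign. Those lost were small changes, among them Igfbp2 and Igfbp7 with siR1 under TGF-β (adjusted p = 0.0868 and 0.105, edgeR), Igf1 between siR2 and siR1 under TGF-β (0.0729) and Igfbp4 with IL-17 in siNC (0.649). The part of liver material in any value was not tested.

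In untreated control CFs the binding proteins dominated the axis by level per length. Igfbp7, a matrix protein that binds IGFs weakly, stood at 937 ± 87.2 CPM/kb (SD, n = 3). It was followed by Igfbp4, which holds IGFs away from the receptor until the protease Pappa cleaves it, at 50.3 ± 3.09 CPM/kb. Igfbp2 was at 23 ± 1.64 and Igfbp3, the main IGF carrier of serum, at 12 ± 0.175 CPM/kb. The receptor Igf1r and the ligand Igf1 came next, at 8.34 ± 0.340 and 7.87 ± 0.380 CPM/kb, and these neighbours differed by less than the sum of their SDs. Igfbp6, which prefers IGF2, was at 5.4 ± 0.632, H19 at 1.7 ± 0.0955 and Igfbp5, a binding protein held in the matrix, at 0.502 ± 0.0663 CPM/kb. Igf2 was lowest at 0.246 ± 0.220 CPM/kb and did not stand apart from Igfbp5, but its own row was nearly empty in 1 of these 3 libraries, as described below.

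**Figure D1:**
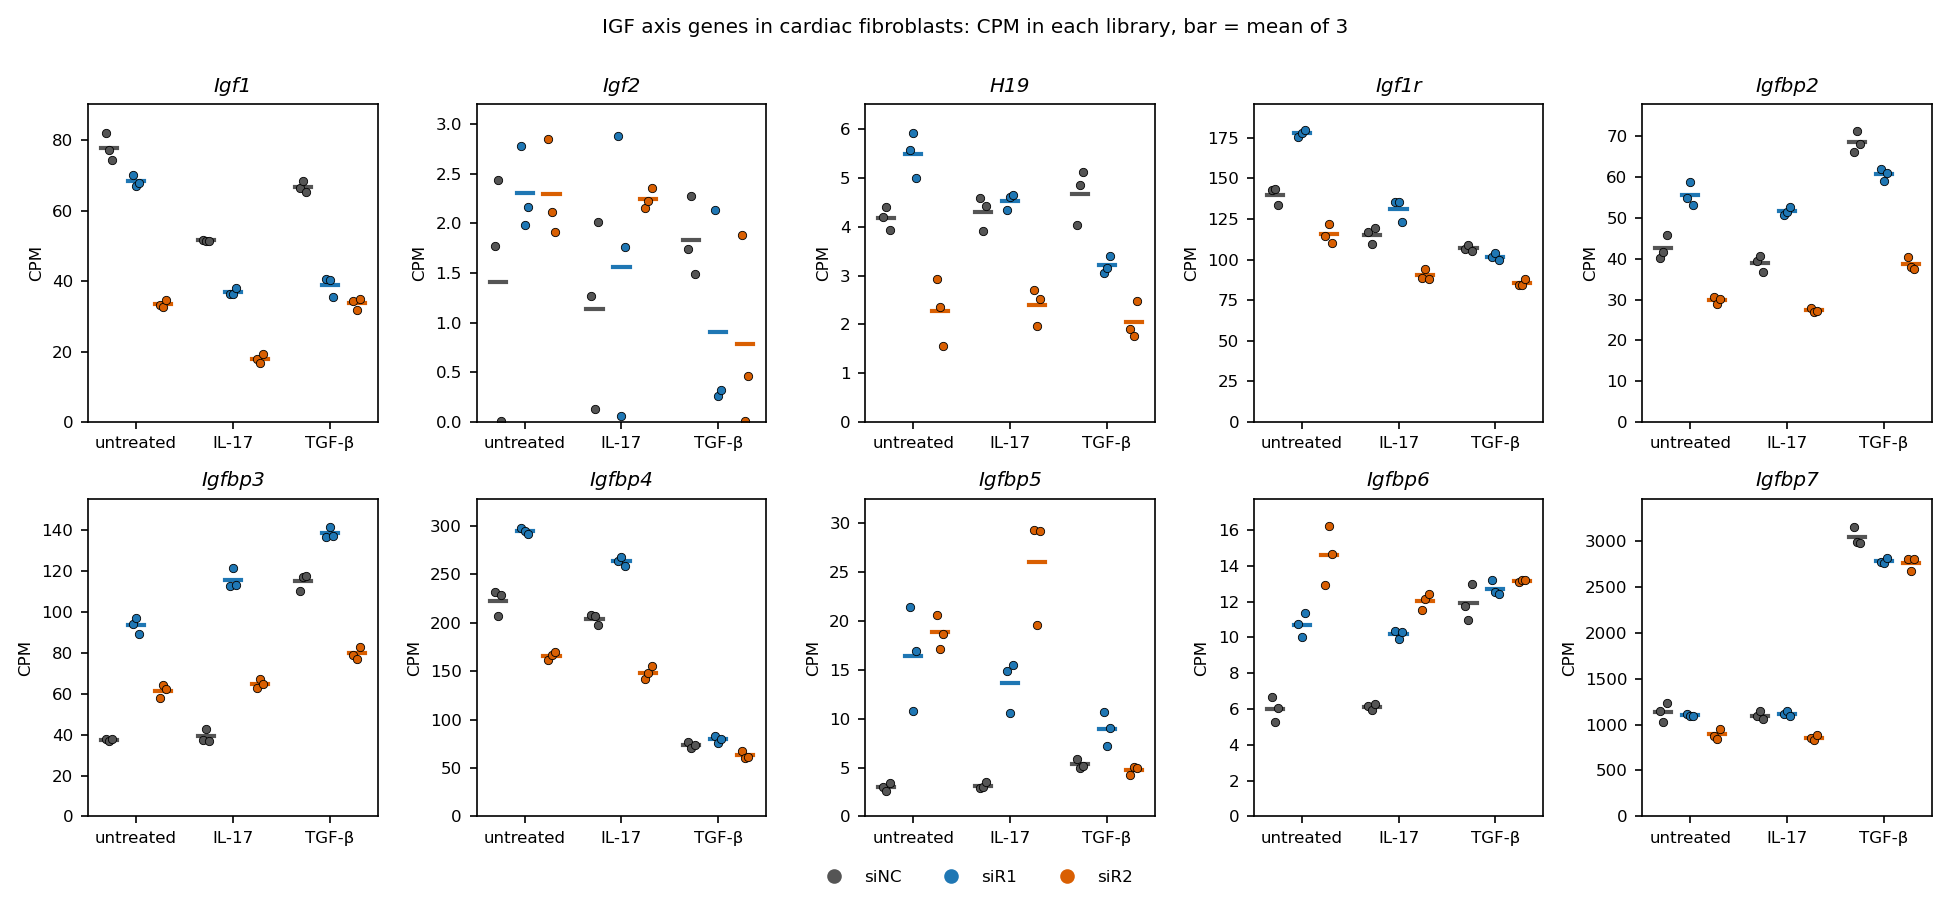
Level of each of the 10 genes in every CF library, in CPM on axes that start at 0, grouped by stimulus on the horizontal axis and coloured by siRNA, with a bar at the mean of 3 libraries. Igf1 and H19 were lowest in the siR2 libraries in untreated and IL-17 cells, Igfbp5 rose from about 3 CPM in both of these tables with either siRNA, and Igfbp4 and Igfbp7 moved in opposite directions with TGF-β.

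Against siNC in untreated CFs, 7 of the 10 genes passed an adjusted p of 0.05 with siR1 and 9 of 10 with siR2, where 39.9% and 49.3% of all genes tested did (edgeR quasi-likelihood test, Benjamini-Hochberg adjustment over all genes). Past a log2 fold change of 1 as well, which is the meaning of called in untreated cells, were 2 and 3 of the 10, with 4.76% and 10.7% of all genes. They were Igfbp3 and Igfbp5 with siR1, and Igf1, Igfbp5 and Igfbp6 with siR2. Both siRNAs were set against the same siNC libraries, so their results are given side by side. With both siRNAs Igfbp3, Igfbp5 and Igfbp6 rose and Igf1 fell. The siRNAs moved Igf1r, Igfbp2 and Igfbp4 in opposite directions. In bulk RNA, fewer cells of a type and less RNA per cell cannot be told apart, here and in the results that follow.

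Igf1, the ligand, was at 82, 77.2 and 74.5 CPM with siNC, 70.1, 67 and 67.9 with siR1 and 33.2, 32.6 and 34.7 with siR2. All siR1 libraries lay just below the controls and all siR2 libraries below 0.5 of them. The log2 fold change was -0.19 ± 0.044 (SE) with siR1 (adjusted p = 0.00218, edgeR) and -1.22 ± 0.045 with siR2 (adjusted p = 7.58e-13, edgeR), a level 0.430 times that of siNC. The siRNAs differed from each other by -1.03 ± 0.045 (adjusted p = 1.09e-11, edgeR).

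H19 split the siRNAs in the same comparison. It was at 4.21, 4.41 and 3.94 CPM with siNC, 5.57, 5.93 and 5.01 with siR1 and 2.93, 2.36 and 1.55 with siR2. Every siR1 library was above and every siR2 library below the controls. The rise with siR1 did not pass, at 0.40 ± 0.17 (adjusted p = 0.0839, edgeR), although it passed in a fit of those 6 libraries alone (0.0119) and without siR2 replicate 1 (0.0446) or 3 (0.0207). The fall with siR2 passed at -0.88 ± 0.18 (adjusted p = 0.000495, edgeR), and siR2 against siR1 gave -1.27 ± 0.18 (adjusted p = 1.39e-05, edgeR).

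Igf1r, the receptor, was at 143, 143 and 133 CPM with siNC, 176, 178 and 180.0 with siR1 and 114, 122 and 110.3 with siR2, and the 3 groups did not overlap. It rose by 0.35 ± 0.037 with siR1 (adjusted p = 1.01e-06, edgeR) and changed by -0.28 ± 0.037 with siR2 (adjusted p = 7.96e-06, edgeR), on the log2 scale, both below the fold threshold.

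Among the binding proteins, Igfbp5 changed most. It was at 3.02, 2.61 and 3.4 CPM with siNC, 21.5, 10.8 and 16.9 with siR1 and 20.6, 17.2 and 18.7 with siR2. All 6 knockdown libraries were above all controls, with a wide spread among the siR1 libraries. It rose 5.44-fold with siR1 (log2 2.44 ± 0.26, adjusted p = 0.000165, edgeR) and 6.25-fold with siR2 (log2 2.64 ± 0.26, adjusted p = 6.89e-05, edgeR). The difference between the siRNAs did not pass, and its approximate 95% interval ran from -0.26 to 0.66 on the log2 scale (adjusted p = 0.563, edgeR).

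Igfbp3 was at 37.7, 36.8 and 37.8 CPM with siNC, 94.1, 96.9 and 89.3 with siR1 and 58.1, 64.1 and 62.3 with siR2, so that here siR1 gave the greater rise. The log2 fold change was 1.32 ± 0.045 with siR1 (adjusted p = 8.68e-13, edgeR) and 0.72 ± 0.044 with siR2 (adjusted p = 5.62e-10, edgeR), and the siRNAs differed by -0.61 ± 0.044 (adjusted p = 5.71e-09, edgeR). Igfbp6 had the reverse order, at 6.66, 5.27 and 6.08 CPM with siNC, 10.7, 10.03 and 11.3 with siR1 and 12.9, 16.2 and 14.7 with siR2. Its log2 fold change was 0.83 ± 0.10 and 1.28 ± 0.10 (adjusted p = 2.94e-06 and 8.64e-09, edgeR), and siR2 exceeded siR1 by 0.45 ± 0.10.

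Igfbp4 and Igfbp2 followed the order of Igf1r. Igfbp4 was at 232, 207 and 229 CPM with siNC, 298, 295 and 292 with siR1 and 161, 167 and 169 with siR2, a log2 change of 0.41 ± 0.038 and -0.42 ± 0.038. Igfbp2 was at 40.1, 41.6 and 45.9 CPM with siNC, 54.8, 58.9 and 53.2 with siR1 and 30.6, 29 and 30.2 with siR2, a log2 change of 0.39 ± 0.057 and -0.51 ± 0.058. All 4 changes passed (adjusted p = 1.88e-07 and 6.14e-08 for Igfbp4, 3.34e-05 and 1.18e-06 for Igfbp2, edgeR). Igfbp7 was at 1143, 1023 and 1233 CPM with siNC, 1119.8, 1088 and 1098 with siR1 and 881, 847 and 950.3 with siR2. It fell with siR2, with a log2 change of -0.34 ± 0.065 (adjusted p = 0.00121, edgeR) and did not pass with siR1 (-0.040 ± 0.065, adjusted p = 0.703).

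Directly compared, siR2 and siR1 differed in 8 of the 10 genes, 7 of them lower with siR2, where 45.5% of all genes passed. Of the 10, 2 (Igf1 and H19) were called, with 6.65% of all genes tested. The targeted gene itself was lower with siR2, with a log2 difference of -0.72 ± 0.12. Whether depth of knockdown or other targets of an siRNA lie behind these differences was not tested.

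Igf2 could not be read from its own row alone. Igf2 (ENSMUSG00000048583, chr7:142650766-142666816, minus strand) shares 3596 of its 5723 exon bases, 62.83%, with Gm49394 (ENSMUSG00000115302) on the same strand. In 7 of the 27 CF libraries Gm49394 held 113 to 202 estimated counts and Igf2 1 to 50, and in the other 20 Gm49394 was at 0 and Igf2 at 151 to 334. The sum of both was 141 to 334 in every library, so the rows traded places between replicates of one group. Replicate 3 of untreated siNC, for example, had 1 count in Igf2 and 186 in Gm49394.

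Summed with Gm49394, Igf2 was at 1.77, 2.44 and 1.51 CPM in untreated siNC, 2.78, 1.98 and 2.16 with siR1 and 2.85, 2.12 and 1.91 with siR2, and the groups overlapped. On its own row the log2 change was 0.72 ± 1.05 and 0.71 ± 1.05 (adjusted p = 0.675 and 0.649, edgeR), and summed it was 0.28 and 0.27 (adjusted p = 0.351 and 0.336). No change of Igf2 with either siRNA was thus detected in untreated CFs. Summing the rows was chosen after seeing the data.

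**Figure D2:**
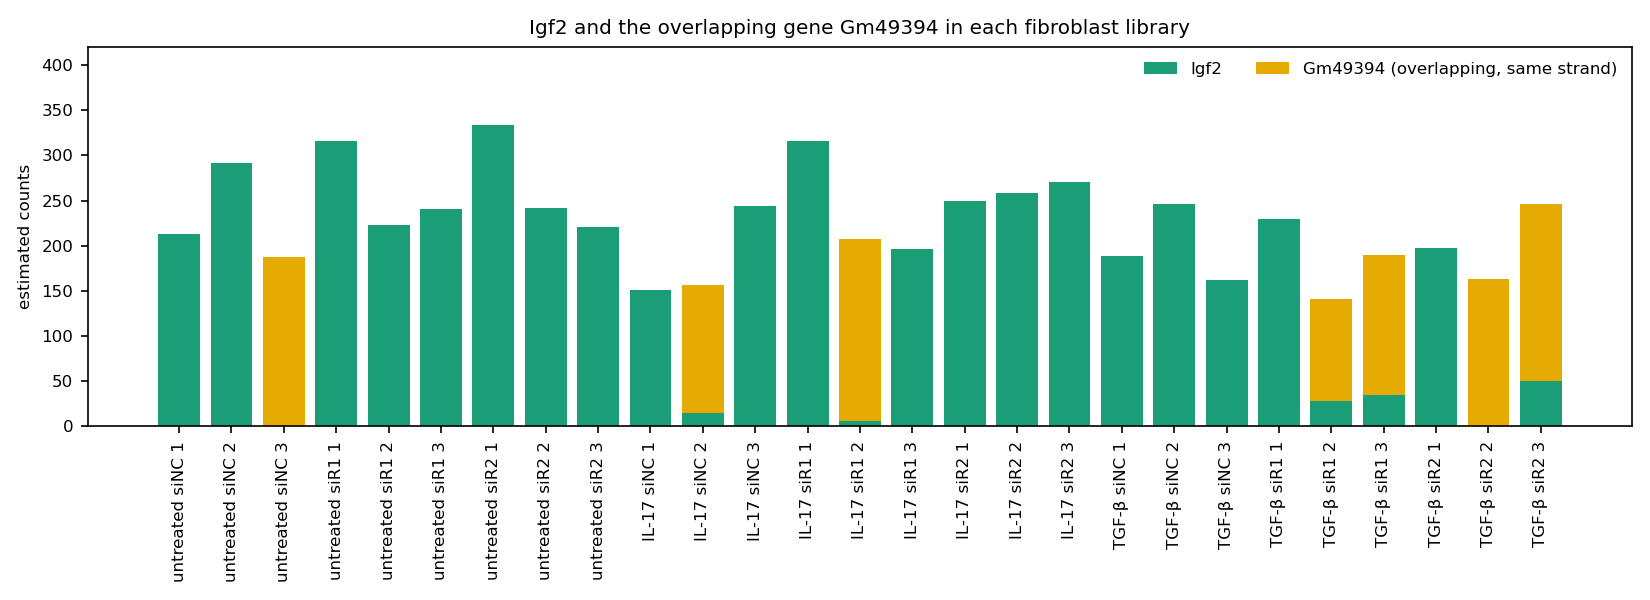
Estimated counts of Igf2 (green) and of the overlapping gene Gm49394 (yellow) stacked for each of the 27 CF libraries, on an axis from 0. In 7 libraries most of the bar is Gm49394, and the total height stays between 141 and 334 in all libraries.

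H19 (ENSMUSG00000000031) lies 72622 bases from Igf2 on chromosome 7 (chr7:142575529-142578143, minus strand), and the ratio of H19 to Igf2 was taken per library with Igf2 summed, as a description. It was 2.38, 1.81 and 2.61 in untreated siNC, 2.00, 3.00 and 2.32 in siR1, and 1.03, 1.12 and 0.810 in siR2. In IL-17 cells the siR2 libraries were at 1.25, 0.888 and 1.07 against 2.2 to 3.61 in siNC. With TGF-β they were at 1.01, 1.12 and 1.09 against 2.13 to 3.44 in siNC. The siR2 libraries thus lay below every siNC library of their table, and in hearts, which come from a separate table, the ratio was 1.14 to 1.35 in Het and 1.01 to 1.17 in KO.

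With IL-17 present, 7 of 10 genes passed with siR1 and 9 of 10 with siR2, where 42.3% and 50.6% of all genes did. Called in the IL-17 and TGF-β tables means a fold change of at least 1.5, and 3 and 5 of the 10 genes were, with 13.5% and 21.7% of all genes. Igfbp3, Igfbp5 and Igfbp6 were called as higher with both siRNAs, and Igf1 and H19 were called as lower with siR2.

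Igf1 was at 51.8, 51.5 and 51.4 CPM with siNC, 36.4, 36.4 and 38 with siR1 and 17.8, 16.8 and 19.3 with siR2, with no overlap among the 3 groups. The log2 change was -0.48 ± 0.052 (adjusted p = 7.4e-07, edgeR) and -1.51 ± 0.053 (adjusted p = 2.17e-13, edgeR), the latter a level 0.351 times that of siNC. H19 was at 4.58, 3.91 and 4.43 CPM with siNC, 4.35, 4.62 and 4.65 with siR1 and 2.7, 1.98 and 2.52 with siR2. It fell with siR2, with a log2 change of -0.84 ± 0.14 (adjusted p = 4.9e-05, edgeR) and did not pass with siR1 at 0.076 ± 0.13 (adjusted p = 0.712).

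Igfbp5 was at 2.89, 3.05 and 3.48 CPM with siNC, 14.9, 10.5 and 15.5 with siR1 and 29.4, 19.6 and 29.2 with siR2. It rose 4.35-fold and 8.35-fold (log2 2.12 ± 0.22 and 3.06 ± 0.23, adjusted p = 0.000122 and 9.09e-06, edgeR), and the groups did not overlap. Igfbp3 was at 37.6, 42.9 and 36.8 CPM with siNC, 113, 121 and 113 with siR1 and 62.7, 67.3 and 64.7 with siR2, a log2 change of 1.57 ± 0.052 and 0.74 ± 0.051. All 6 knockdown libraries of Igfbp3 were again above the controls. Igfbp6 was at 6.15, 5.92 and 6.26 CPM with siNC, 10.4, 9.91 and 10.3 with siR1 and 11.5, 12.1 and 12.4 with siR2, a log2 change of 0.74 ± 0.072 and 0.98 ± 0.072. As in untreated cells, siR1 gave the greater rise of Igfbp3 and siR2 that of Igfbp6, with differences between the siRNAs of -0.83 ± 0.050 and 0.25 ± 0.071 (adjusted p = 4.46e-10 and 0.00831, edgeR).

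Igf1r, Igfbp2 and Igfbp4 again moved up with siR1 and down with siR2, and all 6 changes passed. Igf1r was at 117, 109.7 and 119 CPM with siNC, 136, 136 and 123 with siR1 and 88.5, 94.4 and 88.3 with siR2, a log2 change of 0.19 ± 0.041 and -0.34 ± 0.041. Igfbp2 was at 39.4, 40.7 and 36.8 CPM with siNC, 50.7, 51.5 and 52.8 with siR1 and 27.9, 26.9 and 27.1 with siR2, with log2 changes of 0.41 ± 0.047 and -0.50 ± 0.048. Igfbp4 was at 208, 207 and 198 CPM with siNC, 264, 268 and 258 with siR1 and 142, 148 and 155 with siR2, with log2 changes of 0.37 ± 0.031 and -0.45 ± 0.031. None of these overlapped with siNC. Igfbp7 fell with siR2, with a log2 change of -0.35 ± 0.032 (adjusted p = 6.78e-08, edgeR), from 1091, 1143 and 1056 to 853, 835 and 883 CPM, and did not pass with siR1 (0.029 ± 0.032).

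Igf2 summed with Gm49394 was at 1.27, 1.31 and 2.01 CPM in IL-17 siNC, 2.88, 1.9 and 1.76 with siR1 and 2.15, 2.23 and 2.36 with siR2. With siR2 the summed change was 0.56 on the log2 scale (adjusted p = 0.0414, edgeR), which passed, whereas the row alone gave 0.99 ± 1.22 (adjusted p = 0.571). With siR1 it was 0.51 (adjusted p = 0.0738). The direct comparison of siR2 with siR1 called 6 of 10 genes, with 15.7% of all genes, of which Igf1, H19, Igfbp2, Igfbp3 and Igfbp4 were lower and Igfbp5 was higher with siR2.

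Against siNC in TGF-β cells, 6 of 10 genes passed with siR1 and 7 of 10 with siR2, where 23.1% and 29.9% of all genes did, and 2 and 3 of 10 were called, with 4.36% and 7.51% of all genes. Igf1 fell with both siRNAs and was called with both. Igfbp5 rose with siR1 and did not pass with siR2, Igfbp3 moved in opposite directions, and Igfbp6 passed with neither.

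**Figure D3:**
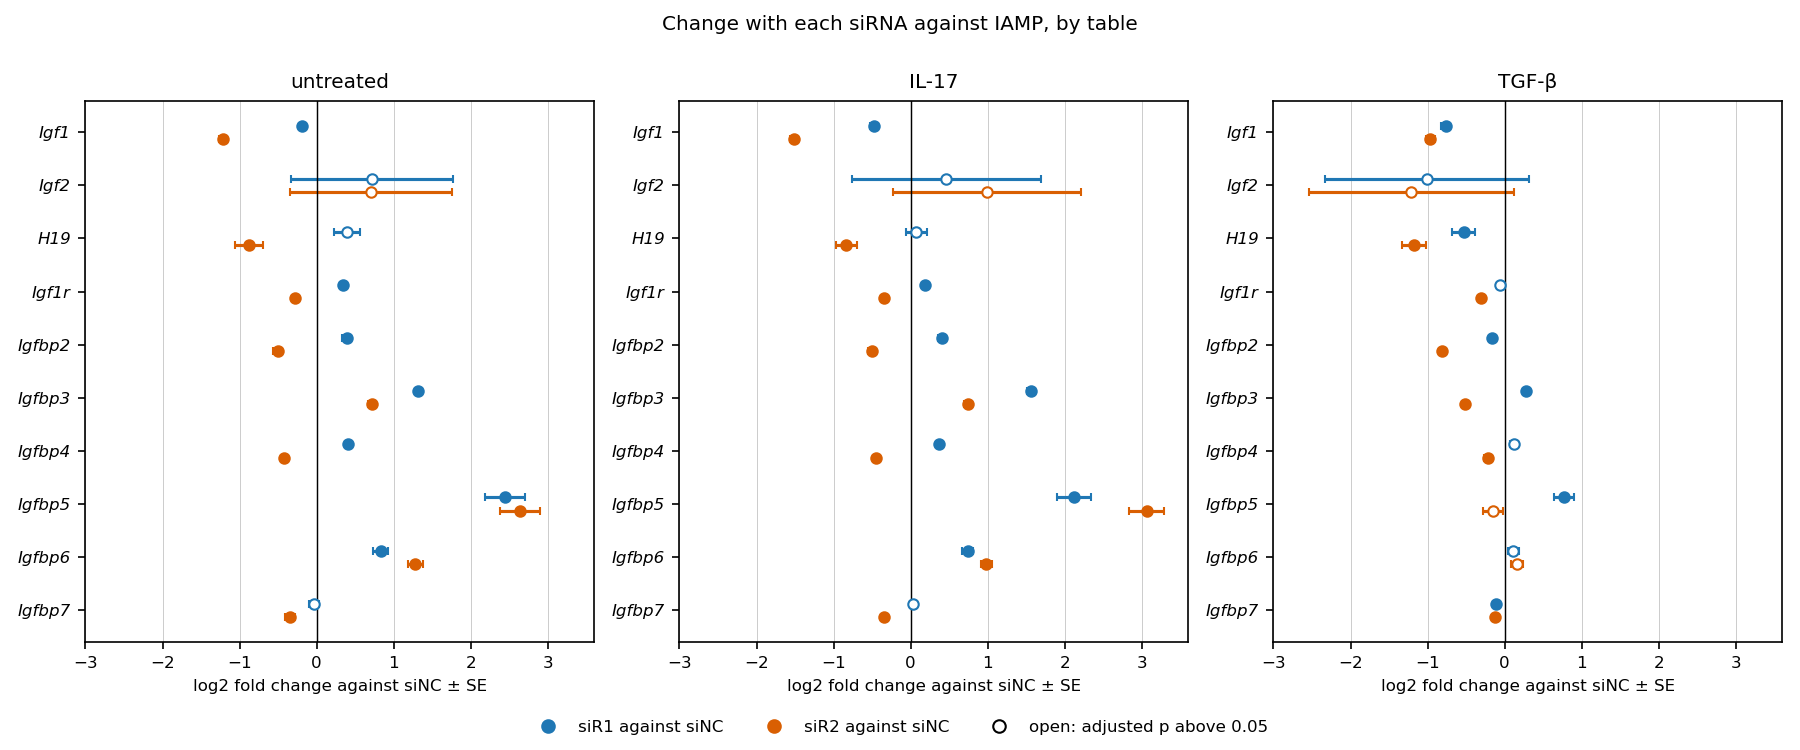
Log2 fold change of each gene with siR1 (blue) and siR2 (orange) against siNC in untreated, IL-17 and TGF-β cells, with bars of 1 SE, filled where the adjusted p is at most 0.05. Igfbp3, Igfbp5 and Igfbp6 are above 0 with both siRNAs in the first 2 panels and nearer to 0 in the third, except Igfbp3 with siR2, which is below 0 there, while Igf1 is below 0 throughout, and the wide bars are those of the Igf2 row on its own.

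In TGF-β cells Igf1 was at 66.4, 68.5 and 65.3 CPM with siNC, 40.7, 40.4 and 35.5 with siR1 and 34.4, 31.8 and 35 with siR2. Every knockdown library lay below every control. The log2 change was -0.76 ± 0.058 (adjusted p = 3.43e-08, edgeR) and -0.97 ± 0.058 (adjusted p = 1.21e-09, edgeR). The siRNAs were closer here, differing by -0.20 ± 0.058 (adjusted p = 0.0155, edgeR), and this small difference was lost without siR1 replicate 1 or 2 or siR2 replicate 2 (adjusted p = 0.0716, 0.083 and 0.0759).

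H19 was at 4.05, 4.86 and 5.12 CPM with siNC, 3.05, 3.16 and 3.41 with siR1 and 1.9, 1.76 and 2.48 with siR2, both groups below the controls. The fall was -1.17 ± 0.15 with siR2 (adjusted p = 1.26e-05, edgeR) and -0.53 ± 0.15 with siR1 (adjusted p = 0.0154, edgeR). The fall with siR1 did not pass once some libraries were left out, with an adjusted p of 0.0569 without siNC replicate 2, 0.0742 without siNC replicate 3, 0.0605 without siR1 replicate 1 and 0.0515 without siR1 replicate 2.

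Igfbp5 was at 5.88, 4.98 and 5.15 CPM with siNC, 10.7, 7.21 and 9.05 with siR1 and 4.26, 5.02 and 4.93 with siR2. It rose 1.7-fold with siR1 (log2 0.77 ± 0.13, adjusted p = 0.000291, edgeR), and with siR2 the groups overlapped at -0.15 ± 0.13 (adjusted p = 0.443). Igfbp3 was at 110.2, 117 and 118 CPM with siNC, 137, 141 and 137 with siR1 and 79.2, 77.1 and 82.9 with siR2, so it was above the controls with siR1 (0.28 ± 0.038, adjusted p = 2.97e-05, edgeR) and below them with siR2 (-0.51 ± 0.038, adjusted p = 1.96e-08, edgeR). Igfbp6 was at 11.7, 10.9 and 13 CPM with siNC, 13.2, 12.5 and 12.4 with siR1 and 13.1, 13.2 and 13.2 with siR2, with log2 changes of 0.11 ± 0.074 and 0.16 ± 0.074 (adjusted p = 0.337 and 0.114, edgeR), of which the second passed without siNC replicate 3 (0.0377).

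Igfbp2 was the binding protein called as lower with siR2, at 66.1, 71.3 and 68.1 CPM with siNC, 62.1, 59.1 and 61 with siR1 and 40.5, 38 and 37.6 with siR2 (-0.81 ± 0.047, adjusted p = 9.01e-10, edgeR). With siR1 its change was -0.16 ± 0.046 (adjusted p = 0.0186), lost without siNC replicate 2 (0.0982), siR1 replicate 2 (0.0857) or siR1 replicate 3 (0.0524). Igf1r was at 107, 109 and 105 CPM with siNC, 102, 104 and 99.9 with siR1 and 84.3, 84.5 and 88.1 with siR2 and fell with siR2, with a log2 change of -0.30 ± 0.035. Igfbp4 was at 76.6, 71 and 73.8 CPM with siNC, 83, 75.8 and 79.9 with siR1 and 67.3, 60.6 and 61.1 with siR2. It fell with siR2, with a log2 change of -0.21 ± 0.049, and did not pass with siR1 (0.12 ± 0.049, adjusted p = 0.0828), where it passed with a replicate block (0.0275) or with counts divided by 6 (0.0443). Igfbp7 was at 3148, 2988 and 2971 CPM with siNC, 2773, 2758 and 2816 with siR1 and 2806, 2671 and 2801 with siR2, all lower. It moved by -0.11 ± 0.034 and -0.12 ± 0.034 with siR1 and siR2 (adjusted p = 0.0254 and 0.0112, edgeR). These small changes failed without siNC replicate 1 (0.153 and 0.0619), and also without any siR1 library (0.0727, 0.0821 and 0.0514) and without siR2 replicate 2 (0.06).

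Summed with Gm49394, Igf2 was at 1.74, 2.28 and 1.49 CPM in siNC, 2.13, 1.3 and 1.75 with siR1 and 1.88, 1.57 and 2.29 with siR2, all overlapping. Its own row gave -1.01 ± 1.32 and -1.21 ± 1.34, with 28 and 35 estimated counts in 2 libraries of siR1 and 1 and 50 in 2 of siR2, where Gm49394 held the rest of the sum, and the sum gave -0.074 and 0.076 (adjusted p = 0.879 and 0.858, edgeR). In the direct comparison of the siRNAs under TGF-β, 4 of 10 genes were called, with 3.96% of all genes, and H19, Igfbp2, Igfbp3 and Igfbp5 were all lower with siR2.

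The effect of each siRNA was then compared between stimulated and untreated cells, in a fit of all 27 libraries together. Each stimulus was a table of its own, so a stimulus and an experiment cannot be told apart in these differences. The targeted gene was less depleted under TGF-β here too, with a difference of 0.73 ± 0.15 for siR1 and 1.02 ± 0.16 for siR2 on the log2 scale (adjusted p = 0.000541 and 3.84e-06, edgeR). The part of this in the differences below was not tested.

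For siR1, 2 of 10 genes had a called difference between TGF-β and untreated cells, where 2.31% of all genes did, and for siR2 3 of 10, where 4.95% did. Each was a smaller rise under TGF-β or, for Igfbp3 and Igfbp5 with siR2, a negative change, which had passed for Igfbp3 only. Igfbp5 differed by -1.68 ± 0.31 with siR1 and -2.82 ± 0.31 with siR2 (adjusted p = 0.000397 and 5.26e-07, edgeR), and Igfbp3 by -1.05 ± 0.067 and -1.25 ± 0.068 (adjusted p = 2.18e-13 and 1.09e-15, edgeR). Igfbp6 was called with siR2 at -1.14 ± 0.12 and passed with siR1 at -0.73 ± 0.12 (adjusted p = 2.02e-09 and 1.46e-05, edgeR). For Igf1 the difference was -0.58 ± 0.073 with siR1, a deeper fall under TGF-β, and 0.23 ± 0.073 with siR2, a shallower one (adjusted p = 2.31e-07 and 0.0155, edgeR). H19 differed by -0.93 ± 0.23 with siR1 (adjusted p = 0.00278, edgeR) and did not pass with siR2 (-0.32 ± 0.23, adjusted p = 0.355). With siR1, Igf1r, Igfbp2 and Igfbp4 also differed, by -0.41 ± 0.058, -0.55 ± 0.071 and -0.29 ± 0.060 (adjusted p = 2.26e-06, 3.73e-07 and 0.000384, edgeR), and Igfbp7 did not pass (-0.078 ± 0.064, adjusted p = 0.488). With siR2, Igfbp2 differed by -0.32 ± 0.072 (adjusted p = 0.000589, edgeR) and Igf1r did not pass (-0.049 ± 0.058). Igfbp4 and Igfbp7 passed with siR2 at 0.19 ± 0.060 and 0.20 ± 0.064, but Igfbp4 was lost without TGF-β siR2 replicate 1 (0.0743) and Igfbp7 without untreated siNC replicate 3 (0.0727) or untreated siR2 replicate 2 (0.0603). The Igf2 row did not pass with either.

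With IL-17, 0 of 10 genes had a called difference with either siRNA, where 0.17% of all genes did with siR1 and 0.174% with siR2. Passing without the fold threshold were Igf1 with siR1 at -0.29 ± 0.073 and with siR2 at -0.29 ± 0.074 (adjusted p = 0.0285 and 0.0304, edgeR), so its fall was somewhat deeper, and Igfbp3 with siR1 at 0.25 ± 0.068 (adjusted p = 0.0497). These 3 calls were lost without any 1 of 8, 9 and 10 of the 12 libraries behind each, with adjusted p up to 0.0954, 0.156 and 0.187. The other values of the 10 genes did not pass, with adjusted p of at least 0.237.

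The stimuli themselves were compared across tables, so stimulus and experiment cannot be told apart, and both stimuli were set against the same untreated libraries. With IL-17 against untreated in siNC, 3 of 10 genes passed, with 12.2% of all genes, and 0 were called, with 1.46%. Igf1 was at 82, 77.2 and 74.5 CPM untreated and 51.8, 51.5 and 51.4 with IL-17, all lower, a log2 change of -0.60 ± 0.051 (adjusted p = 1.06e-10, edgeR). Igf1r fell, with a log2 change of -0.28 ± 0.041 (adjusted p = 4.36e-06, edgeR). So did Igfbp4, with -0.13 ± 0.042 (adjusted p = 0.0444, edgeR), a call lost without any 1 of untreated replicates 1 and 3 (0.238 and 0.195) or IL-17 replicates 1, 2 and 3 (0.0682, 0.0709 and 0.19). Igfbp2 did not pass at -0.13 ± 0.051 (adjusted p = 0.0998), except without untreated replicate 1 (0.0453), and the other 6 genes had an adjusted p of at least 0.563. In the knockdown cells 0 of 10 were called as well, with 1.83% of all genes in siR1 and 1.65% in siR2. Igf1 fell there, with log2 changes of -0.89 ± 0.052 and -0.89 ± 0.053, as did Igf1r with -0.44 ± 0.041 and -0.35 ± 0.041. Igfbp4 passed in both at -0.16 ± 0.042 and -0.15 ± 0.042 (adjusted p = 0.00563 and 0.0116, edgeR), the second lost without untreated replicate 3 (0.0973) or IL-17 replicate 1 (0.0962). Igfbp3 passed in siR1 at 0.31 ± 0.047 (adjusted p = 6.87e-06, edgeR). Igfbp6 passed in siR2 at -0.27 ± 0.081 (adjusted p = 0.0207, edgeR), a call lost without untreated replicate 2 or 3 (0.205 and 0.0702) or IL-17 replicate 1 (0.101). The other genes passed in neither.

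TGF-β against untreated in siNC passed 8 of 10 genes, with 55.5% of all genes, and called 3 of 10, with 20.8%. Igfbp3 was at 37.7, 36.8 and 37.8 CPM untreated and 110.2, 117 and 118 with TGF-β, a 3.05-fold rise (log2 1.61 ± 0.049, adjusted p = 1.62e-23, edgeR). Igfbp7 went from 1143, 1023 and 1233 to 3148, 2988 and 2971 CPM, 2.66-fold (log2 1.41 ± 0.046, adjusted p = 9.88e-22, edgeR). Igfbp4 went the other way, from 232, 207 and 229 to 76.6, 71 and 73.8 CPM, a log2 change of -1.60 ± 0.043 (adjusted p = 7.72e-25, edgeR). None of these groups overlapped.

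Below the fold threshold, Igfbp6 rose by 0.98 ± 0.084, Igfbp5 by 0.81 ± 0.23 and Igfbp2 by 0.68 ± 0.050 on the log2 scale, while Igf1r changed by -0.40 ± 0.041 and Igf1 by -0.23 ± 0.051 (adjusted p = 5.58e-12, 0.00406, 1.96e-13, 4.57e-10 and 0.000209, edgeR). H19 did not pass at 0.15 ± 0.16 (adjusted p = 0.467), nor did the Igf2 row (adjusted p = 0.829). Markers of other cells moved with TGF-β in the same libraries. From untreated to TGF-β siNC the macrophage sum went from 59.7 to 64.0 up to 153 to 160 CPM, with 4 of 8 markers higher and 2 lower by the test, and the endothelial sum from 72.9 to 78.9 up to 127 to 129 CPM, with 7 of 8 higher and 1 lower. Of the mesothelial markers 5 of 6 were lower and 1 higher, with a median log2 change of -1.77, and of the mural markers 5 of 8 were higher and 2 lower, with a median of 1.07. In this comparison 55.5% of all genes passed in either direction. The part of these cells was not tested. Their part in the changes of the IGF genes was not tested. By level per length Igfbp7 reached 2511 ± 80.8 CPM/kb and Igfbp2 and Igfbp3, at 37.1 ± 1.42 and 36.7 ± 1.33 CPM/kb, then stood above Igfbp4 at 16.7 ± 0.630.

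In the knockdown cells TGF-β called 2 of 10 genes with siR1 and 3 of 10 with siR2, with 20% and 20.1% of all genes. Igfbp4 fell and Igfbp7 rose in both, with log2 changes of -1.89 ± 0.043 and 1.33 ± 0.046 in siR1 and -1.41 ± 0.043 and 1.61 ± 0.046 in siR2. Igfbp5 fell with TGF-β in the knockdown cells, with log2 changes of -0.87 ± 0.21 in siR1 and -2.0 ± 0.22 in siR2, the opposite direction to siNC, and the siR1 value failed in a fit of those 2 groups alone (0.0654). The rise of Igfbp3 was 0.56 ± 0.047 in siR1 and 0.36 ± 0.048 in siR2. H19 fell in siR1, with a log2 change of -0.78 ± 0.16 (adjusted p = 9.89e-05, edgeR) and no overlap, and did not pass in siR2 (-0.17 ± 0.17, adjusted p = 0.417). Igf1r fell in both, with log2 changes of -0.81 ± 0.041 and -0.45 ± 0.042. Igfbp2 rose in siR2 by 0.35 ± 0.051. In siR1 its rise of 0.12 ± 0.050 (adjusted p = 0.0378) was lost without untreated replicate 1 or 3 (0.102 and 0.199) or TGF-β replicate 1 or 3 (0.118 and 0.0826). Igfbp6 was at 0.25 ± 0.082 in siR1 (adjusted p = 0.0109), lost without untreated replicate 2 (0.0663), and did not pass in siR2 (-0.16 ± 0.081, adjusted p = 0.0889). The Igf2 row passed in neither. Igf1 fell in siR1, with a log2 change of -0.82 ± 0.052 and did not pass in siR2 at -0.0033 ± 0.052, with a 95% interval of -0.11 to 0.10.

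**Figure D4:**
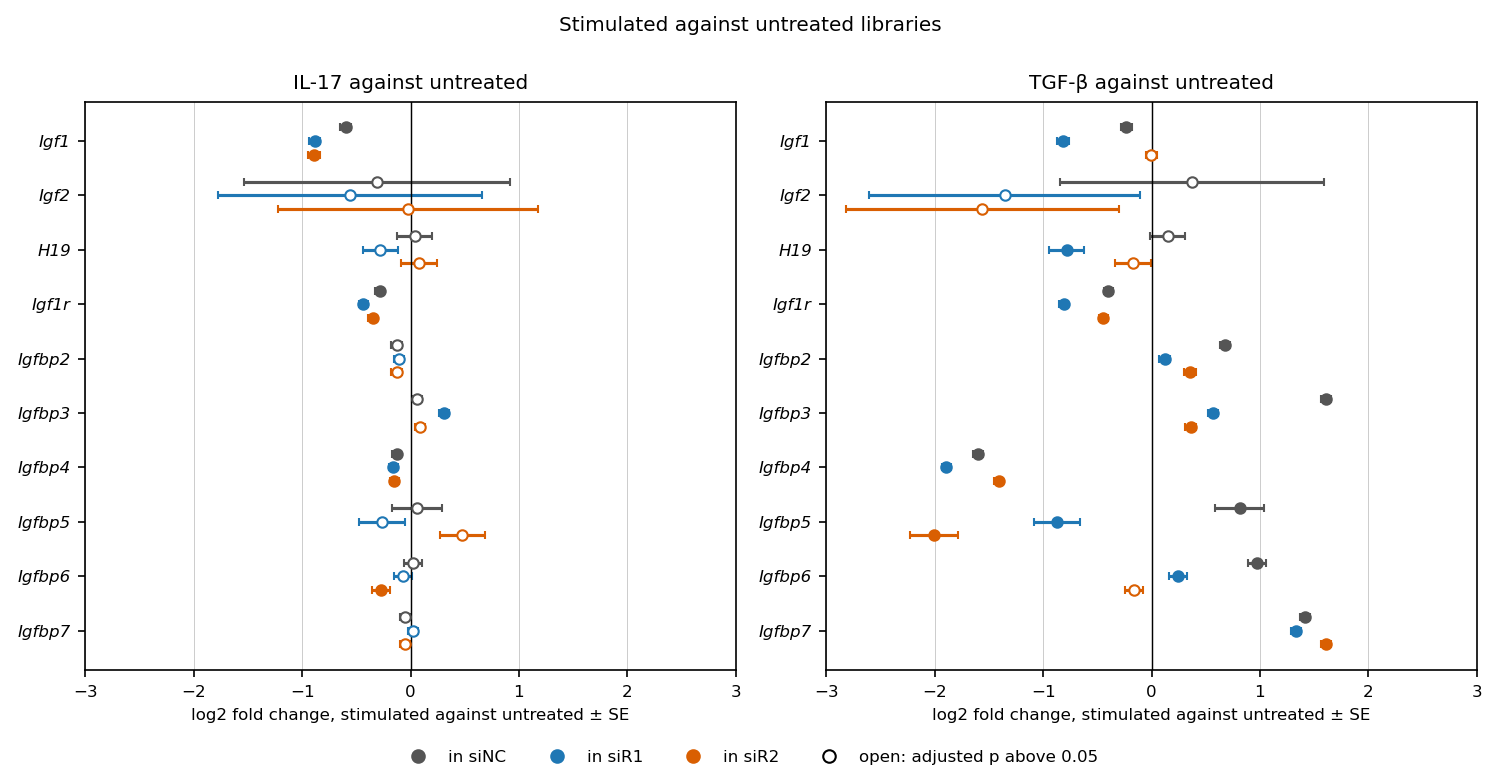
Log2 fold change of each gene between stimulated and untreated libraries, in siNC (grey), siR1 (blue) and siR2 (orange), with bars of 1 SE, filled where the adjusted p is at most 0.05. With IL-17 no gene passes 1 in size, and with TGF-β Igfbp4 falls and Igfbp7 rises in all 3 cell groups while Igfbp5 is above 0 in siNC and below 0 with both siRNAs.

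Other genes of the pathway were taken from a list of 30, chosen with earlier results of these data known. It includes the second IGF2 receptor Igf2r, the protease Pappa and its inhibitors Stc1 and Stc2, and the kinases downstream. Counted by adjusted p alone, 14 of 28 tested rose and 5 fell with siR1 in untreated CFs, and 11 rose and 10 fell with siR2, where 39.9% and 49.3% of all genes passed in either direction. The median log2 change was 0.18 and 0.026, where it was -0.016 and -0.020 over all genes tested. With IL-17, 13 of 29 rose and 8 fell with siR1 and 11 rose and 10 fell with siR2, where 42.3% and 50.6% of all genes passed. With TGF-β, 11 rose and 4 fell with siR1 and 7 rose and 9 fell with siR2, where 23.1% and 29.9% of all genes passed.

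Past the fold threshold with both siRNAs, Stc1, which blocks the cleavage of Igfbp4 by Pappa, rose in untreated cells by 1.55 ± 0.19 and 1.79 ± 0.19 and with IL-17 by 1.41 ± 0.18 and 1.53 ± 0.18. Its level was 1.67 ± 0.469 CPM in untreated siNC, 4.87 ± 0.742 in siR1 and 5.77 ± 0.965 in siR2 (SD, n = 3). Grb14, an adaptor that inhibits the insulin receptor, rose by 1.26 ± 0.076 and 2.17 ± 0.076 untreated and 1.09 ± 0.081 and 1.93 ± 0.082 with IL-17, from 7.22 ± 0.683 CPM to 17.3 ± 0.549 and 32.4 ± 2.03. Htra1, a protease that can cleave IGF binding proteins, fell, with log2 changes of -0.98 ± 0.035 and -0.82 ± 0.035 with IL-17 and -0.69 ± 0.050 and -0.64 ± 0.050 with TGF-β. With TGF-β, Stc2 fell, with log2 changes of -0.59 ± 0.049 and -0.60 ± 0.049, and so did Irs1, the adaptor of the IGF1 receptor, with -0.65 ± 0.069 and -0.79 ± 0.070. Each of these had an adjusted p of at most 1.34e-05.

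Because H19 and Igf2 are imprinted, 20 other imprinted genes were listed, with earlier results of these data known. The counts below thus describe the data and are no independent test. Of the 20, 2 (Igf2r and Grb10) are also in the pathway list. With siR2, 14 of 19 tested fell and 1 rose in untreated cells, and 14 fell and 0 rose with IL-17, with medians of -0.70 and -0.84 on the log2 scale, where 49.3% and 50.6% of all genes passed and the medians over all genes were -0.020 and -0.017. With siR1, 7 fell and 5 rose in each of these tables, with medians of -0.21 and -0.21. There 39.9% and 42.3% of all genes passed, with medians of -0.016 and -0.0026. With TGF-β, 5 fell and 1 rose with siR1, and 7 fell and 0 rose with siR2, with medians of -0.011 and -0.16. Of all genes, 23.1% and 29.9% passed under TGF-β, with medians of 0.00030 and 0.013. Slc38a4, an amino acid transporter, was called as lower with both siRNAs untreated (-1.15 ± 0.13 and -2.80 ± 0.14) and with IL-17 (-1.37 ± 0.12 and -2.76 ± 0.13), from 9.47 ± 0.510 CPM in untreated siNC to 1.36 ± 0.302 in siR2. So was Tspan32, at 1.16 ± 0.241 CPM in untreated siNC, with -1.51 ± 0.38 and -2.01 ± 0.39 untreated and -1.25 ± 0.46 and -2.62 ± 0.50 with IL-17. Dlk1, a Notch ligand relative of fetal tissue, fell, with log2 changes of -1.93 ± 0.37 and -1.98 ± 0.37 in untreated cells from 0.903 ± 0.104 CPM. Mest fell, with log2 changes of -0.60 ± 0.14 and -0.84 ± 0.14 with IL-17, and Cdkn1c, an inhibitor of cyclin-dependent kinases, with log2 changes of -0.61 ± 0.21 and -1.12 ± 0.21 with TGF-β. The adjusted p of these named changes was at most 0.0398.

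Markers of other cells moved in the same libraries. The 6 mesothelial markers summed to 142 to 158 CPM in untreated siNC, 132 to 138 in siR1 and 87.4 to 93.3 in siR2. By the test 1 of 6 was lower with siR1, and 4 were lower and 1 higher with siR2. Of all genes tested in untreated cells, 39.9% passed with siR1 and 49.3% with siR2, in either direction, beside which all marker counts here stand. The 8 mural and smooth muscle markers summed to 108 to 121 CPM in siNC, 71.1 to 76.9 in siR1 and 55.2 to 67.4 in siR2, but only 2 of them passed as lower and 1 as higher with siR1, with a median log2 change of -0.027, and 4 as lower with siR2. The 8 cardiomyocyte markers summed to 91.1 to 98.9 CPM in siNC, 42.8 to 47.5 in siR1 and 28.1 to 33.0 in siR2. Myh6 was at 0 in siNC, Myl2 in siR1, and Myh6, Myl2 and Pln in siR2. Only 5 of the 8 were tested, of which 1 passed as lower with siR1 and 3 with siR2. In untreated cells the mesothelial, mural and cardiomyocyte sums thus had the order siNC, siR1, siR2 from high to low, as Igf1 did. Few single markers of these lists passed as lower with siR1, so the order of the sums is not that of most members. The 8 endothelial markers summed to 72.9 to 78.9, 67.1 to 70.9 and 73.6 to 76.3 CPM. By the test 0 were higher and 2 lower with siR1, and 1 higher and 3 lower with siR2. The 12 fibroblast markers summed to 17651 to 18326 CPM in siNC, 23014 to 23897 in siR1 and 22521 to 23007 in siR2. Of these 12, 6 passed as higher and 3 as lower with siR1, and 4 as higher and 6 as lower with siR2. The 8 macrophage markers summed to 59.7 to 64.0 CPM in untreated siNC, 59.1 to 62.8 in siR1 and 73.9 to 78.6 in siR2, where 2 passed as higher and 3 as lower, with a median of -0.038. With IL-17 the mesothelial sum was 111 to 115 CPM in siNC and 67.9 to 72.0 in siR2, and with TGF-β it was 41.6 to 48.0 and 23.4 to 30.3. No marker of the mesothelial, mural, endothelial or macrophage lists was at 0 in all 3 libraries of a CF group. Their part in the changes of the IGF genes was not tested.

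For Igf1 and H19, the genes with the most similar levels over the 9 CF groups were found among 13330 genes of at least 1 CPM. By Pearson's r of the mean log2 CPM, they were A930004D18Rik (0.984), Prkag2 (0.969) and Tssc4 (0.966) for Igf1. For H19 they were Stk26 (0.951), Steap3 (0.943) and Piwil2 (0.933). None are given for Igf2, whose row depended on the split with Gm49394. The 9 groups share tables and siRNAs, and with so few points many genes reach a high r, so these describe the data only.

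In hearts, KO against Het, 9 of the 10 genes were tested and 0 passed or were called, where 0% of all 16675 genes tested were. All adjusted p values were 1 in edgeR, the lowest unadjusted p was 0.221, so 0 of 9 were under 0.05, and DESeq2 passed 0 of them. Over all genes, 601 had an unadjusted p under 0.05. Igfbp2 was filtered out at 0 to 17 counts per heart.

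Igf2 was at 34.4, 38.6, 35.9 and 43.5 CPM in Het and 43.1, 45, 42.1 and 35.3 in KO hearts. H19 was at 46.1, 46.3, 40.9 and 58.6 CPM in Het and 43.7, 50.4, 49.1 and 40.2 in KO. The genotypes overlapped for both, with log2 changes of 0.12 ± 0.091 and -0.066 ± 0.11. Gm49394 was at 0 in all 8 hearts. Igf1 was at 4.68, 5.67, 6.67 and 6.02 CPM in Het and 6.65, 4.5, 5.43 and 5.34 in KO (-0.072 ± 0.14). Igf1r was at 21.1, 28.8, 30.8 and 33.7 CPM in Het and 34.1, 34.4, 25.2 and 39.2 in KO, with the widest interval of the 9, -0.11 to 0.54 on the log2 scale.

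Among the binding proteins, Igfbp5 was at 112, 99.7, 123 and 146 CPM in Het and 119.7, 115, 122 and 119 in KO. Igfbp3 was at 31.3, 27, 27.8 and 26.9 CPM in Het and 29.2, 26.8, 31.8 and 26.8 in KO. The 95% interval of the difference was -0.21 to 0.18 for Igfbp5 and -0.13 to 0.16 for Igfbp3. So a change of Igfbp5 or Igfbp3 in whole hearts as large as that seen in untreated CFs with either siRNA lay outside these intervals. A change in heart fibroblasts alone could be diluted by other cells, and KO was set against Het, so the intervals cannot decide that. Igfbp6 was at 20.8, 16.1, 22.1 and 17.7 CPM in Het and 21.1, 21.4, 18.8 and 18.9 in KO. Igfbp4 was at 78.7, 60.7, 80.2 and 95.7 CPM in Het and 75.4, 80.8, 76.9 and 86.8 in KO. Igfbp7 was at 157, 136, 179 and 179 CPM in Het and 154, 163, 157 and 157 in KO. The range of every gene overlapped between genotypes.

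**Figure D5:**
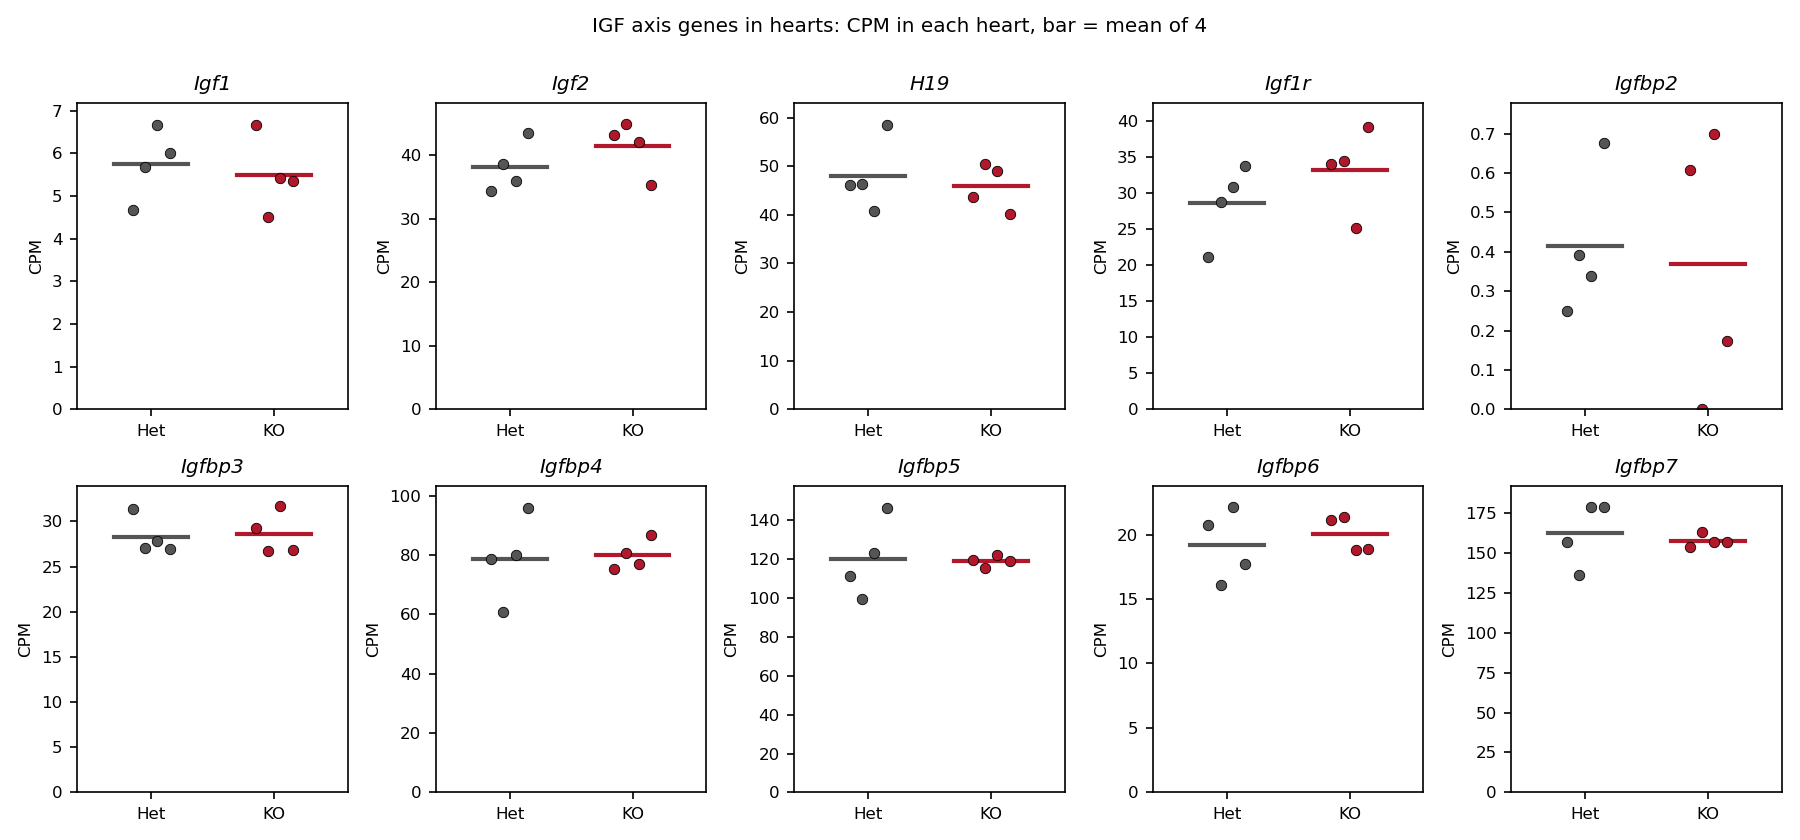
CPM of each gene in the 4 Het and the 4 KO hearts, on axes that start at 0, with a bar at the mean of 4. In every panel the points of both genotypes overlap, and Igfbp2 lies below 1 CPM.

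Heart and CF levels come from separate tables, so they are set side by side with no test. Igf2 was at 38.1 ± 3.98 CPM (SD, n = 4) in Het hearts and at most 2.88 CPM in any CF library, and H19 at 48 ± 7.5 CPM against at most 5.93. Igfbp5 was at 120.2 ± 19.9 CPM in Het hearts and 3.01 ± 0.398 in untreated siNC CFs. In the other direction, Igf1 was at 5.76 ± 0.829 CPM in Het hearts and 77.9 ± 3.76 in untreated siNC CFs, Igfbp7 at 163 ± 20.7 and 1133 ± 105, and Igfbp2 at 0.415 ± 0.184 and 42.5 ± 3.03. Per length, Igfbp7 led in Het hearts too, at 134 ± 17.1 CPM/kb, followed by Igfbp5, H19, Igfbp4 and Igfbp6 at 20.02 ± 3.32, 19.5 ± 3.05, 17.8 ± 3.24 and 17.2 ± 2.48, whose neighbours differed by less than the sum of their SDs. Igfbp3 came next at 9.04 ± 0.664, then Igf2 at 6.66 ± 0.695, Igf1r at 1.7 ± 0.322, Igf1 at 0.581 ± 0.0837 and Igfbp2 at 0.225 ± 0.0998 CPM/kb.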

How the data were processed

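The authors trimmed reads with Cutadapt, aligned them to GRCm38 with HISAT2 and quantified them with StringTie. They deposited whole numbers without normalization, which were read here as estimated counts from coverage in the 3 CF tables (about 6 per read pair) and as counts in the heart table. The strand setting and the step to whole numbers are not given in the sources used here. All columns were used, and heart columns carry a genotype but no replicate number. Depth was 104139670 to 119232309 estimated counts per CF library and 23497027 to 23857313 counts per heart, which limits precision for counts near the floor of 18 (CFs) or 3 (hearts).

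Each table was fitted whole with edgeR 4.0.16 (R 4.3.3, TMM, filterByExpr, robust quasi-likelihood), and stimuli and interactions in 1 fit of all 27 CF libraries. P values were adjusted by Benjamini-Hochberg over all genes tested, and the SE is the absolute log2 fold change over the square root of F. Genes were called at an adjusted p up to 0.05 and a change of 1 or more on the log2 scale, in either direction, or 1.5-fold within the IL-17 and TGF-β tables. Coordinates and exon lengths are from GENCODE vM21, and sequences from RefSeq. The text covers the 10 genes in every comparison, by name or in a count, and names of the listed genes those called in 1 direction with both siRNAs of a table. The 10 genes and the lists were chosen with earlier results of these data known. The code was tested on simulated data. The main fits did not pair libraries by replicate number, and whether same-numbered libraries shared a culture is not known. Alternatives were DESeq2 1.42.0, RLE size factors, no filter, at least 10 counts in every library, division of estimated counts by 6, the compared groups alone, a replicate block, CPM from library totals, each library left out, and, chosen after seeing the data, Igf2 summed with Gm49394 and omission of the 5 libraries with at least 1000 counts of Alb.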

Additional observations from a re-analysis of the deposited data

Results flagged for a closer look

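The effect of an siRNA differed between TGF-β and untreated CFs, by a test of the difference itself, in 5 cases past the fold threshold. These cells were in separate tables, so TGF-β and experiment cannot be told apart here. Igfbp5 differed by -1.68 with siR1 and -2.82 with siR2 on the log2 scale, Igfbp3 by -1.05 and -1.25, and Igfbp6 by -1.14 with siR2. Each was a smaller rise, or a negative change, under TGF-β. Left out in turn, no library ended any of these 5 calls at an adjusted p of 0.05, with values of -1.91 to -1.44, -2.91 to -2.72, -1.08 to -1.02, -1.28 to -1.21 and -1.21 to -1.05 in the same order. In the same libraries the siNC level was already higher with TGF-β (0.81, 1.61 and 0.98 for Igfbp5, Igfbp3 and Igfbp6), and the targeted gene was less depleted. The part of either in the differences was not tested. In hearts, no IGF gene had a library far from the other 3 of its genotype by Dixon's test at 0.829.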

How the results depend on the processing

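The number of IGF genes called in each comparison stayed within 1.5 times of its value in each of the 114 alternative fits. This margin lets a count of 2 become 3, so which genes were called could change. Log2 values of H19 with siR2 in untreated cells ran from -1.11 to -0.66 with 1 library left out. Those of Igfbp6 with TGF-β in siNC ran from 0.89 to 1.04, and both ranges span the fold threshold of 1 in size. Of 2481 values of single genes, 2365 kept their direction and their side of an adjusted p of 0.05, 73 lost it, 9 gained it and 34 changed sign. The median change over all genes moved by under 0.1 in each. The replicate block called 2 and 3 of the 10 genes in untreated cells with siR1 and siR2, as without it, and it moved no count of called IGF genes in the 19 CF comparisons. It brought Igfbp4 with siR1 under TGF-β past the threshold (0.12, adjusted p = 0.0275). Same-numbered libraries from different groups of a table correlated at -0.12 to 0.035, after the group mean of each gene was subtracted. These values describe what is left after the groups, and cannot show whether libraries shared a culture. Each sign change was of a value that had not passed. With Igf2 summed with Gm49394, Igf2 was 0.076 with siR2 under TGF-β and -0.065 with TGF-β in siNC, and the mean H19 to Igf2 ratio of TGF-β siR1 was 1.94. Without the 5 libraries with liver transcripts, which leaves IL-17 siNC with 1 library assumed to vary like the other groups, Igfbp7 was 0.025 untreated and -0.029 with IL-17 for siR1. There, H19, Igfbp6 and Igfbp7 were -0.15, -0.017 and 0.071 with IL-17 in siNC, and Igf2 -0.22 with TGF-β in siNC. Without that set of libraries the IL-17 interactions of Igf1 (adjusted p = 0.419 and 0.5) and of Igfbp3 (0.867) no longer passed, and the loss of single libraries took them to 0.0244 to 0.0954, 0.00856 to 0.156 and 0.00364 to 0.187. With 1 library left out, log2 values ran from -0.11 to 0.025 (Igfbp7, siR1, untreated), -0.32 to 1.17 (Igf2, siR1, IL-17) and -0.21 to 1.04 (Igf2, TGF-β in siNC). For IL-17 in siNC they ran from -0.0077 to 0.10 (H19), -1.02 to 0.36 (Igf2), -0.014 to 0.10 (Igfbp3), -0.038 to 0.16 (Igfbp5), -0.064 to 0.10 (Igfbp6) and -0.12 to 0.017 (Igfbp7). In hearts they ran from -0.18 to 0.010 (Igf1), -0.14 to 0.046 (H19), -0.036 to 0.071 (Igfbp3), -0.086 to 0.13 (Igfbp4), -0.094 to 0.10 (Igfbp5), -0.011 to 0.14 (Igfbp6) and -0.12 to 0.0055 (Igfbp7). The cause of these changes was not tested. Depth limits Igf2 and H19 in CFs, where both rows summed gave Igf2 141 to 334 estimated counts a library, and Igfbp2 in hearts, with 0 to 17 counts.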
